A study of Homo sapiens with 12 samples.

Results

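Histone genes were taken from the mRNA-seq table by symbol, as every gene whose name starts with HIST1, HIST2, HIST3 or HIST4. This gave 71 of the 20030 genes in the table. The members were selected by symbol alone, and no measured value chose them, although the family was taken up with earlier results of these data known. Of the 71, 61 had a value above 0 in at least 1 library and 10 were at 0 in every library. The 71 genes comprised 6 for the linker histone H1, 17 for H2A, 18 for H2B, 15 for H3 and 15 for H4. By symbol, 55 belong to HIST1 on chromosome 6, 12 to HIST2 and 3 to HIST3 on chromosome 1, and 1 (HIST4H4) is on chromosome 12. HIST2H3PS2 (chr1:143902386-143905977) lies apart from the other HIST2 genes (chr1:149782689-149887965).

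The data were from MOLM-13 and THP-1, human acute myeloid leukemia cell lines with rearrangements of the mixed lineage leukemia gene. MOLM-13 also carries the FLT3/ITD mutation, and THP-1 has wild-type FLT3. Cells were given Jiyuan oridonin A (JOA), a kaurene diterpenoid from a plant of the genus Isodon, at 0.5 μM in MOLM-13 and 2 μM in THP-1, or only its solvent DMSO as control, for 48 h by the sample labels. A passage of the study gives a longer treatment for these cells. There were 3 control and 3 JOA libraries of each line, so line and dose cannot be told apart. Nothing in the sample records says that the replicates were separate cultures, so the p-values measure the spread between these libraries only.

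Dimers of H2A with H2B and a tetramer of H3 and H4 form the protein core around which DNA is wrapped, and H1 binds the DNA that enters and leaves that core. Most genes of this family are transcribed during S phase from clusters, many as H2A and H2B neighbours that share the interval between their start sites. Their mRNAs mostly carry no poly(A) tail and end just after a conserved hairpin that binds the protein SLBP, although some members also give polyadenylated transcripts. The libraries were made with a kit that selects polyadenylated RNA, so a histone level here is the level of what that selection retained.

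The hairpin is shown because it marks where the usual histone mRNA ends. It was searched as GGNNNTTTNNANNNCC (N is any base) after the coding sequence in GENCODE transcripts on GRCh38, and is in capitals below between 5 flanking bases on each side, read 5′ to 3′ on the coding strand.

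HIST1H2AC (chr6:26124669-26124684, plus strand): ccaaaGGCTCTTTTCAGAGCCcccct
HIST1H2AG (chr6:27133515-27133530, plus strand): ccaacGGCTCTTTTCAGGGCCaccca
HIST1H2BH (chr6:26252055-26252070, plus strand): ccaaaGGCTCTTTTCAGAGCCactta
HIST1H3H (chr6:27810516-27810531, plus strand): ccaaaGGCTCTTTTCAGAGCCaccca
HIST1H4H (chr6:26285131-26285146, minus strand): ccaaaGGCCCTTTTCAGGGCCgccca

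All 71 members had a protein-coding transcript in that annotation, and 36 of them had annotated sequence after the stop codon. The hairpin letters were found there in 31 members, in the form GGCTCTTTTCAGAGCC in 17 of them. For comparison, the letters occurred anywhere in 3.07% of all 83129 protein-coding transcripts on the sense strand and in 3.26% on the other strand. In 19 of the 31 members the longest annotated transcript ran over 200 bases past the hairpin, by 1114 bases in HIST1H2AC, 1761 bases in HIST1H2AG and 1640 bases in HIST1H2BH. The median level (mean FPKM over 12 libraries) was 0.292 for those 19 genes, 0.165 for the 12 with a shorter stretch and 0.153 for the 40 with no hairpin in the annotated transcript. Most of the 40 had no annotated sequence after the stop codon to search, so they do not stand for genes that lack a hairpin. HIST1H2BK and HIST1H1C are among the 40.

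A second set of sequences covers the genes whose levels the comparisons turn on. These are the 160 bases before the RefSeq start site of each (GRCh38.p14), 5′ to 3′ on the gene's strand. Capitals mark the CCAAT box, the sequence TATAAA (a form of the TATA box) and the octamer ATTTGCAT, read on both strands.

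HIST1H2BK (chr6:27146859-27147018, minus strand): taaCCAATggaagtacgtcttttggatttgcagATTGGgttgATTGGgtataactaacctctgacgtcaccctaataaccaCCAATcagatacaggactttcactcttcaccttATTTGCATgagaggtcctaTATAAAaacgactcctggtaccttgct
HIST1H2AC (chr6:26124012-26124171, plus strand): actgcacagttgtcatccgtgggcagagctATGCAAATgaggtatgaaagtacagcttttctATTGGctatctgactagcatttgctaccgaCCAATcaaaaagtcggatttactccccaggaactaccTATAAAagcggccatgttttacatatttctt
HIST1H2AG (chr6:27132883-27133042, plus strand): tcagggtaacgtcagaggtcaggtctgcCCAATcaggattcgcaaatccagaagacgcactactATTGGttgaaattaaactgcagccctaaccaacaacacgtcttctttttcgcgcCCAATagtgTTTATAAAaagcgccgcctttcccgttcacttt
HIST1H2BH (chr6:26251454-26251613, plus strand): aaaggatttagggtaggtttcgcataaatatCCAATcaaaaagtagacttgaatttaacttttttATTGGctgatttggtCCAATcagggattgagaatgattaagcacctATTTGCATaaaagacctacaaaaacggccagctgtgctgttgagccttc
HIST2H3PS2 (chr1:143905978-143906137, minus strand): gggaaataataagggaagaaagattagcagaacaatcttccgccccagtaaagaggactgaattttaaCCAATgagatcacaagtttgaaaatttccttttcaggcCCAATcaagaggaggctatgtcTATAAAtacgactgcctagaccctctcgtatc

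Over the 250 bases before the start, 66 of the 71 members had a sequence in the RefSeq set. CCAAT, the box bound by NF-Y, was found in 84.8% of these 66 promoters against 33.0% of all 27305 promoters. It stood in all 6 H1, 16 H2A, 18 H2B and 13 H3 promoters and in 3 of 13 for H4. TATAAA was found in 66.7% of members against 11.1% of all promoters. ATTTGCAT, the octamer bound by OCT1, was found in 39.4% of members against 1.66% of all promoters, with 14 of 18 in H2B, 11 of 16 in H2A, 1 of 13 in H3 and 0 in H1 and H4. In the HIST1H2AG stretch, TATAAA overlaps its own reverse complement, and both are in capitals. Divergent H2A and H2B neighbours have start sites 193 to 247 bases apart. Their searched stretches cover the same interval, so 1 match can count for both genes. A match says only that the letters are present.

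Levels are given in FPKM, a fragment count scaled to the exon length of the gene and to the mapped fragments of the library. Comparisons between genes rest on the exon lengths used, and the annotation behind them is not given in the sources used here. HIST1H2AC, for one, spans 519 bases in RefSeq, and its GENCODE transcript has 1654 bases. Rankings of genes and sums over genes carry this uncertainty. The summed FPKM of the 71 genes ran from 58.0 to 96.2 per library, which was 0.0190% to 0.0331% of the summed FPKM of all genes. By comparison H2AFZ, a replication-independent H2A variant whose mRNA is polyadenylated, was alone at 369.8 to 555.8 FPKM. Between 36 and 45 of the 71 genes were above 0 in a library, and between 8 and 17 reached 1 FPKM.

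A few genes made up most of the sum. HIST1H2BK, which encodes an H2B, had a mean of 20.8 FPKM over the 12 libraries and supplied 34.7% ± 2.98 (SD, n = 3) of the summed FPKM in MOLM-13 control and 17.2% ± 1.82 in THP-1 control. The next 4 by mean level were HIST1H1C (linker histone H1.2, 9.42 FPKM), HIST1H2BH (an H2B, 7.14), HIST1H2AC (an H2A, 5.59) and HIST2H3PS2 (the H3 variant H3.7, 4.31). Together these 5 genes held 57.8% ± 2.10 of the sum in MOLM-13 control and 69.7% ± 2.37 in THP-1 control. A further 7 genes averaged at least 1 FPKM: the H2A genes HIST3H2A (2.61), HIST2H2AC (2.04) and HIST1H2AG (1.68), the H2B genes HIST1H2BC (2.29), HIST1H2BJ (1.28) and HIST1H2BD (1.19), and the H3 gene HIST1H3H (1.23).

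**Figure D1:**
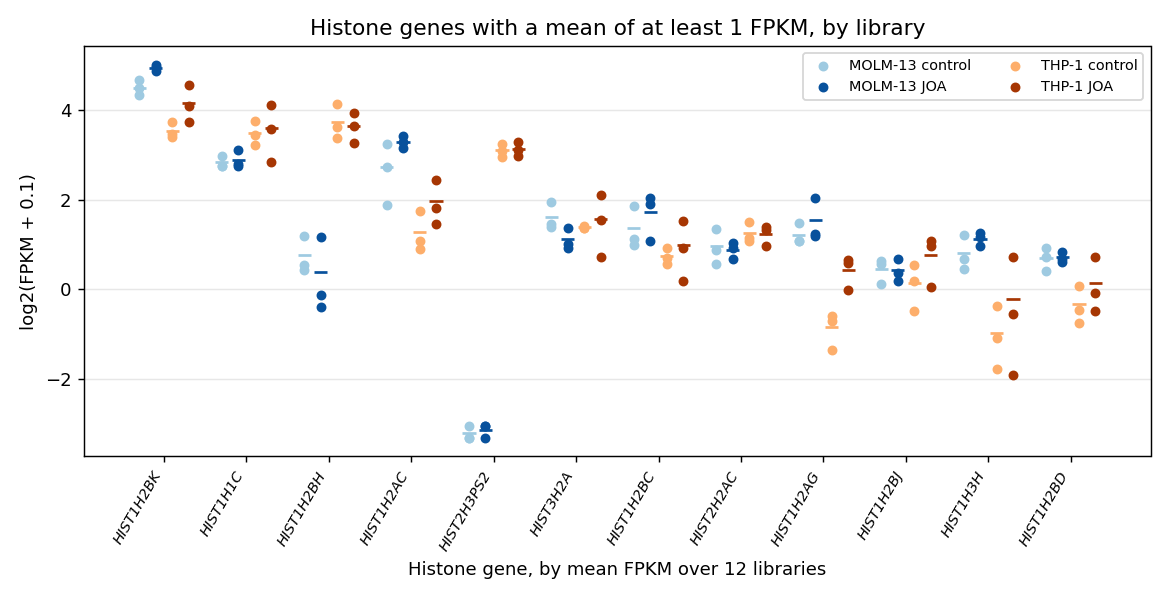
Level of the 12 histone genes with a mean of at least 1 FPKM, as log2(FPKM + 0.1) on the vertical axis, with 1 point per library and a bar at the log2 of each group's mean FPKM plus 0.1. HIST1H2BK was the highest gene in every MOLM-13 library, and HIST2H3PS2 was between 7.66 and 9.64 FPKM in THP-1 libraries and at most 0.0208 FPKM in MOLM-13 libraries.

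The classes differed in how often they were seen. No H4 gene was above 0 in all 12 libraries, and 64.4% of the 180 H4 values were 0. Among H2B genes 10 of 18 were above 0 in all libraries, against 6 of 17 H2A, 2 of 15 H3 and 2 of 6 H1 genes. The highest H4 level in any library was 2.02 FPKM, for HIST1H4H in MOLM-13 control replicate 1, a gene that was at 0 in MOLM-13 control replicate 2. Of 63 H4 values above 0 (in genes with at least 2 such values), 33 lay within 1.3 times their gene's smallest value, which is itself counted. That share was 52.4% for H4, 44.4% for H1, 40.0% for H3, 26.8% for H2A (without HIST1H2AD) and 24.7% for H2B. The smallest of the 63 H4 values was 0.152 FPKM.

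Some members could not be told apart from others, or shared bases. The coding sequences of HIST2H2AA3 and HIST2H2AA4, HIST2H3A and HIST2H3C, HIST2H4A and HIST2H4B, and HIST1H4J and HIST1H4K were identical within each pair in GENCODE. Of the HIST2 genes in these pairs, only HIST2H2AA3 was above 0 in any library (at most 0.220 FPKM). HIST1H2AD lies within the RefSeq span of HIST1H3D on the same strand, and in 3 of the 12 libraries it exceeded 0.1 FPKM (0.262, 1.60 and 0.618), while its other values were between 2.68e-08 and 0.0332 FPKM. HIST1H4I lies on the other strand inside the span of HIST1H2BK (chr6:27138293-27146858). Whether the authors' counting used strand is not given in the sources used here, so the values of HIST1H2AD and HIST1H4I are uncertain.

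Genes with long annotated spans had a higher median level, though not each of them was high. In RefSeq, 9 members span over 1000 bases, HIST1H2BK (8566 bases), HIST1H2BC (10757) and HIST1H2BD (13229) among them, and their median level was 0.976 FPKM. The longest spans, of HIST2H2BF (29682 bases) and HIST2H4B (16753), went with mean levels of 0.0985 and 0 FPKM. The other 62 members span 386 to 797 bases and had a median of 0.153 FPKM, with HIST1H1C at 9.42 FPKM among them. This is a description over genes, with no test.

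Before the comparisons, the lines were checked against 12 marker genes of myeloid and monocytic cells. All 12 passed the filter in both lines, PTPRC (CD45) at 14.9 to 19.9 FPKM and SPI1 (PU.1) at 38.3 to 63.3 FPKM among them. FLT3 was at 76.2 to 96.4 FPKM in MOLM-13 and 10.5 to 17.8 FPKM in THP-1. CD14, a monocyte surface protein, was at most 0.978 FPKM in any library. Since these are bulk samples, fewer cells that express a gene and less RNA of it per cell cannot be told apart.

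The first question was whether JOA changed histone mRNAs in MOLM-13. Of the 71 genes, 41 had a mean of at least 0.1 FPKM over the 6 MOLM-13 libraries and were tested with limma on log2(FPKM + 0.1) among 11693 genes. Genes were called where p, adjusted by the Benjamini-Hochberg method, was under 0.05 and the log2 difference was at least 0.58 in size. No histone gene was called (0 of 41), as was 0% of all genes. The study, which used DESeq at the same thresholds, reported changed genes in each line. The 0 calls of this fit therefore do not show that no mRNA changed. At an unadjusted p under 0.05 there were 9 of 41 (6 higher and 3 lower), against 4.11% of all genes. Among the 9 were HIST1H2AH, HIST1H3A and HIST1H2AD, which met the 0.1 FPKM filter only through their JOA libraries. HIST1H3I, also among them, met it only through its controls. For such genes the filter favours a difference, so the 9 cannot be read against the share of all genes. The median log2 difference was 0.00 over the 41 and 0.01 over all genes, with 21 higher and 20 lower.

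HIST1H2BK stood at 20.3, 22.4 and 25.3 FPKM in MOLM-13 control and was at 32.4, 29.2 and 31.3 FPKM with JOA. Every JOA library was above every control library. The log2 difference was 0.45 ± 0.09 (SE, n = 3 per group), with a limma adjusted p of 1.00. Groups did not overlap for 7 of the 41 genes (4 higher and 3 lower with JOA), against 9.64% of all genes (5.09% higher and 4.55% lower). The 7 include HIST1H2AH, HIST1H3A, HIST1H2AD and HIST1H3I, which met the filter only through the group where they were high. This count too cannot be read against the share of all genes.

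HIST1H2AC stood at 3.57, 9.46 and 6.56 FPKM in control and at 10.6, 9.64 and 8.81 FPKM with JOA. The groups overlapped by 1 control library, replicate 2. The log2 difference was 0.66 ± 0.29 (SE), and the limma adjusted p was 1.00. That difference was 0.29 without control replicate 1 and 0.98 without control replicate 2. HIST1H2AG, another H2A gene, stood at 2.00, 2.01 and 2.68 FPKM in control and at 3.99, 2.18 and 2.26 FPKM with JOA, with overlapping groups.

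Several genes near the detection limit were at 0 in all libraries of 1 group. HIST1H3A, an H3 gene, was listed at 0 in the 3 control libraries and at 0.404, 0.198 and 0.399 FPKM with JOA. HIST1H2AH, the divergent neighbour of HIST1H2BK, was also listed at 0 in the controls and at 0.164, 0.640 and 0.475 FPKM with JOA. HIST1H3I, an H3 gene, went the other way, from 0.301, 0.320 and 0.707 FPKM in control to 0 in all 3 JOA libraries. Their limma adjusted p-values were 0.406 for HIST1H3A and HIST1H3I and 0.777 for HIST1H2AH. No fold is given against a group at 0.

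Among the other lower values, HIST3H2A, an H2A gene outside the HIST1 cluster, was at 2.52, 2.65 and 3.77 FPKM in control and at 1.90, 1.81 and 2.50 FPKM with JOA. These groups were just separate, and the log2 difference was -0.50 ± 0.18 (SE). HIST1H2BO, an H2B gene, had means of 0.391 FPKM in control and 0.103 with JOA, a log2 difference of -1.34 ± 0.41 (SE). HIST1H2AJ, an H2A gene, had means of 0.275 and 0.123 FPKM, a log2 difference of -1.06 ± 0.62. Both were near the detection limit, with a limma adjusted p of 0.9997 each. The most abundant linker gene, HIST1H1C, was at 7.04 ± 0.687 FPKM (SD, n = 3) in control and 7.33 ± 1.00 with JOA. HIST1H2BH was at 1.59 ± 0.509 and 1.21 ± 0.826 FPKM.

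In THP-1, 47 histone genes were tested among 12712 genes and 0 were called by limma, against 0.134% of all genes. At an unadjusted p under 0.05 there were 7 of 47 (6 higher and 1 lower), against 16.9% of all genes. Groups did not overlap for 2 of the 47, both higher with JOA, against 23.4% of all genes in either direction and 14.6% higher. The median log2 difference was 0.04 over the 47 and 0.02 over all genes.

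Control and JOA libraries with the same replicate number deviated together in both lines, so a second fit took the number as a block. With the block, 3 histone genes were called in THP-1, all higher with JOA, against 1.27% of all genes in either direction and 0.637% higher. These were HIST1H2AC, HIST1H2BK and HIST1H2AG. At an unadjusted p under 0.05 the blocked fit held 14 of the 47, against 26.0% of all genes. In MOLM-13 the block gave 0 calls, against 0% of all genes, and 13 of 41 genes had an unadjusted p under 0.05, against 11.1% of all genes. The 13 again include HIST1H2AH, HIST1H3A, HIST1H2AD and HIST1H3I, which met the filter through 1 group only.

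HIST1H2AC stood at 2.01, 3.26 and 1.76 FPKM in THP-1 control and at 3.41, 5.36 and 2.66 FPKM with JOA. The groups overlapped, but each JOA library was above its same-numbered control, by ratios of 1.70, 1.64 and 1.51. The log2 difference was 0.67, with an SE of 0.08 and a limma adjusted p of 0.00792 with the block, and an SE of 0.29 and an adjusted p of 0.290 without it.

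HIST1H2BK stood at 13.2, 10.5 and 10.9 FPKM in THP-1 control and at 23.7, 17.0 and 13.2 FPKM with JOA. The groups overlapped by their nearest libraries, and the ratios within the same-numbered pairs were 1.79, 1.62 and 1.20. The log2 difference was 0.60, with a limma adjusted p of 0.0201 with the block and 0.185 without it. It fell to 0.48 when replicate 1 was left out of both groups and to 0.55 without replicate 2, which is below the 0.58 needed for a call.

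HIST1H2AG stood at 0.560, 0.509 and 0.289 FPKM in THP-1 control and at 1.46, 0.881 and 1.40 FPKM with JOA. All 3 JOA libraries were above all 3 controls. The log2 difference was 1.29 ± 0.25 (SE), with a limma adjusted p of 0.0770 without the block and 0.0216 with it. HIST1H2AC and HIST1H2AG were also called in the blocked fit without any 1 of the 3 same-numbered pairs. Those fits were chosen after seeing the data and leave 1 residual degree of freedom. They called more histone genes than the full blocked fit, so staying called in them does not show that a call is stable.

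The divergent partner of each gene, which shares its upstream interval, had a level of its own. HIST1H2BC, an H2B gene 245 bases from HIST1H2AC, was at 1.56 ± 0.218 FPKM in THP-1 control and 1.87 ± 0.872 with JOA. HIST1H2BJ, an H2B gene 247 bases from HIST1H2AG, was at 1.00 ± 0.375 and 1.60 ± 0.581 FPKM. HIST1H2AH, 247 bases from HIST1H2BK, was at 0.327, 0.299 and 0.169 FPKM in THP-1 control and at 0, 0.343 and 0 FPKM with JOA, against the 11.6 ± 1.47 and 17.9 ± 5.32 FPKM of HIST1H2BK. These differences between partners were not tested.

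Of the remaining genes in THP-1, HIST2H3D, an H3 gene, was listed at 0 in the controls and at 0.609, 0 and 0.341 FPKM with JOA. HIST1H4F, an H4 gene, was above 0 only in 2 THP-1 JOA libraries, at most 0.613 FPKM. On the lower side, HIST1H2AK, an H2A gene, had a log2 difference of -1.02 ± 0.58 (SE), and HIST1H4C, an H4 gene, one of -0.84 ± 0.83. Leaving out 1 library moved them to between -0.67 (without control replicate 2 or JOA replicate 2 or 3) and -1.71 (without JOA replicate 1) for HIST1H2AK. For HIST1H4C it gave between -0.27 and -0.38 without JOA replicate 1 or control replicate 2 or 3, and -1.82 without control replicate 1. HIST1H1B (linker histone H1.5) was at 0.126, 0.0578 and 0.131 FPKM in control and between 0.133 and 0.346 FPKM with JOA, with groups just separate. HIST1H1C was at 11.2 ± 2.19 FPKM in control and 12.1 ± 5.17 with JOA, and HIST2H3PS2 was at 8.51 ± 0.866 and 8.70 ± 0.905 FPKM.

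**Figure D2:**
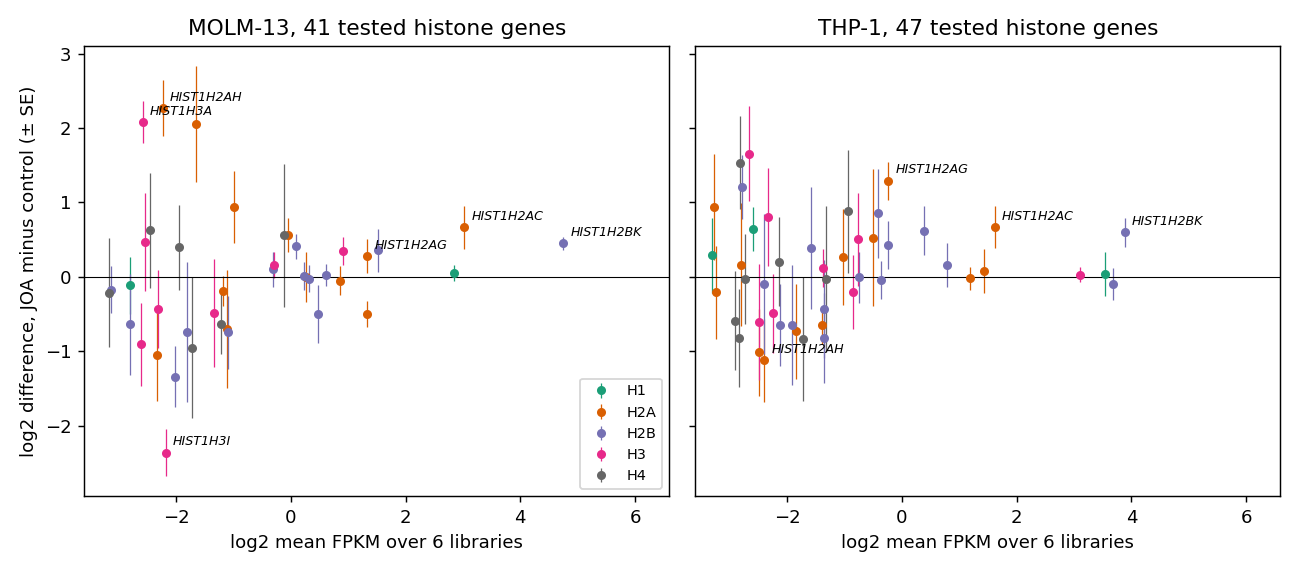
Log2 difference of JOA minus control with its SE (vertical axis) against the log2 of the mean FPKM over the 6 libraries of the line (horizontal axis), with 1 point per tested histone gene coloured by class. Large differences in both directions lie mostly at the left, at low level, while HIST1H2BK and HIST1H2AC lie above 0 at the right in both lines.

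Whether the JOA difference itself differed between the lines was tested as an interaction of line and treatment over the 12 libraries. Of 44 histone genes tested among 12626, 0 had a limma adjusted p under 0.05, against 0% of all genes. With the block it was again 0, against 0.0475% of all genes. At an unadjusted p under 0.05 there were 3 of 44, against 7.24% of all genes. The smallest adjusted p among them, 0.387 (0.0717 with the block), belonged to HIST1H2AH, which was above 0 only with JOA in MOLM-13 and in all 3 controls but 1 JOA library in THP-1. For HIST1H2BK the difference between the lines was 0.14 ± 0.24 (SE) on the log2 scale, THP-1 minus MOLM-13. HIST1H2AG had 1.01 ± 0.38 (SE) with an adjusted p of 0.598. The others at the extremes of this test, HIST1H2BF, HIST1H3F, HIST1H3E and HIST1H3J, never exceeded 1 FPKM, and HIST1H2AD is uncertain as said.

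Summed over the family, the 3 MOLM-13 controls were at 60.9, 68.8 and 66.5 FPKM and the JOA libraries at 84.2, 72.1 and 77.2 FPKM. Each JOA library was above each control, and the log2 ratio of the means was 0.25. Without HIST1H2BK the ratio was 0.13, and the groups overlapped. The sums get no p-value.

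In THP-1 the controls were at 75.2, 68.7 and 58.0 FPKM and the JOA libraries at 96.2, 76.7 and 60.7 FPKM. The groups overlapped, while each JOA library was above its same-numbered control. The log2 ratio was 0.21, and 0.03 without JOA replicate 1, the library with the highest sum.

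The sums were also read by class, with and without HIST1H2BK for H2B. In MOLM-13, H2B summed to 34.0 FPKM in control and 42.4 with JOA, and to 11.4 FPKM in both without HIST1H2BK. In THP-1, H2B summed to 32.5 and 38.8 FPKM, and the ratio of JOA to control was 0.997 without HIST1H2BK. The H2A sums were 17.3 and 21.5 FPKM in MOLM-13 and 10.4 and 12.8 in THP-1, with overlapping groups in both. H1, H3 and H4 sums also overlapped between control and JOA in both lines.

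**Figure D3:**
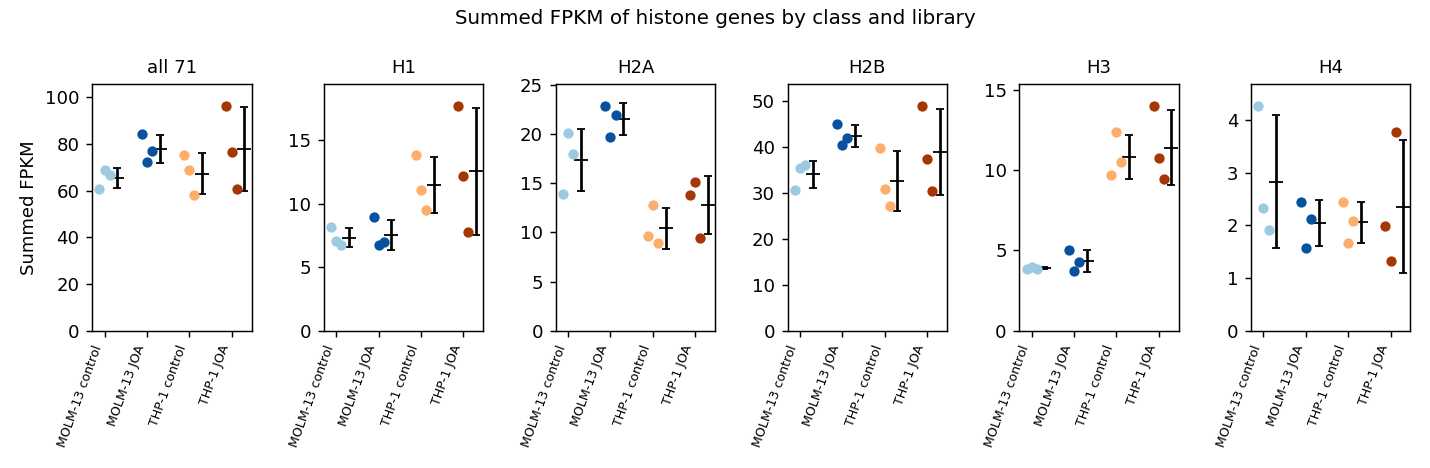
Summed FPKM (vertical axes, from 0) of all 71 histone genes and of each class, with 1 point per library and black bars for the mean and SD of 3 libraries. The H2B sum was higher in all 3 MOLM-13 JOA libraries than in all MOLM-13 controls, and the H3 sum was higher in all THP-1 than in all MOLM-13 libraries.

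The second question was how the untreated lines differ. Between the controls, 47 histone genes were tested among 12635 genes, and limma called 19, 8 higher and 11 lower in THP-1 than in MOLM-13. All genes were called at 44.0% (25.0% higher and 19.0% lower). The median log2 difference was -0.31 over the 47 and 0.06 over all genes. Groups did not overlap for 17 of 47, against 74.8% of all genes.

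HIST2H3PS2 was at 7.66, 9.39 and 8.48 FPKM in THP-1 control and at 0, 0 and 0.0208 FPKM in MOLM-13 control. The groups were wide apart, and the limma log2 difference was 6.33 ± 0.14 (SE; adjusted p 3.79e-08). With MOLM-13 control at or near 0, the size of this difference is set largely by the 0.1 added before the log. HIST1H2BH was at 17.6, 12.2 and 10.3 FPKM in THP-1 and at 2.17, 1.24 and 1.35 FPKM in MOLM-13, a log2 difference of 3.00 ± 0.24 (limma adjusted p 1.13e-05).

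Other genes higher in THP-1 were mostly low in level. HIST1H3C, HIST1H3G (H3 genes) and HIST1H2BE (an H2B gene) were at 0 in all 6 MOLM-13 libraries and reached 0.908, 0.383 and 0.848 FPKM in THP-1. HIST1H2AH was at 0 in the MOLM-13 controls. HIST3H2BB, an H2B gene, had a log2 difference of 1.42 ± 0.41 (SE). HIST1H1C was at 13.5, 10.8 and 9.22 FPKM in THP-1 against 7.84, 6.68 and 6.62 FPKM in MOLM-13, with a log2 difference of 0.65 ± 0.14 and no overlap. It was 0.50, below the 0.58 for a call, without THP-1 control replicate 1. HIST1H2BE had overlapping groups, and its call was lost (limma adjusted p 0.0928 to 0.117) without each of the MOLM-13 controls and without THP-1 control replicate 1.

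Among the 11 lower genes, the abundant HIST1H2BK was at 11.6 ± 1.47 FPKM (SD, n = 3) in THP-1 against 22.7 ± 2.50 in MOLM-13. Its log2 difference was -0.97 ± 0.11 (SE; limma adjusted p 8.33e-05). HIST1H2AG had a log2 difference of -2.10 ± 0.22, HIST1H3H one of -1.86 ± 0.35 and HIST1H2AC one of -1.38 ± 0.35. HIST1H3E, an H3 gene, was at 0.163, 0.520 and 0.566 FPKM in MOLM-13 control and at 0 in all 3 THP-1 controls.

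The rest of the lower calls were HIST1H4I (-1.43), HIST1H2AM (-1.09), HIST1H2BD (-1.06), HIST1H3D (-0.91), HIST1H2AK (-0.80) and HIST1H2BC (-0.60, log2 differences throughout). HIST1H4I and HIST1H2AK had groups that overlapped. The call of HIST1H4I was lost without MOLM-13 control replicate 1 or 3 or THP-1 control replicate 2 (log2 difference -0.85 without the last). That of HIST1H2AK was lost without MOLM-13 control replicate 2 or 3 or THP-1 control replicate 1 or 3. That of HIST1H2BC was lost without MOLM-13 control replicate 2 (log2 difference -0.33) or THP-1 control replicate 2 or 3. With a pseudocount of 1 in place of 0.1, 8 of the 19 genes were called: HIST2H3PS2, HIST1H2BH, HIST1H3C and HIST1H1C higher, and HIST1H2AG, HIST1H2AC, HIST1H3H and HIST1H2BK lower.

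**Figure D4:**
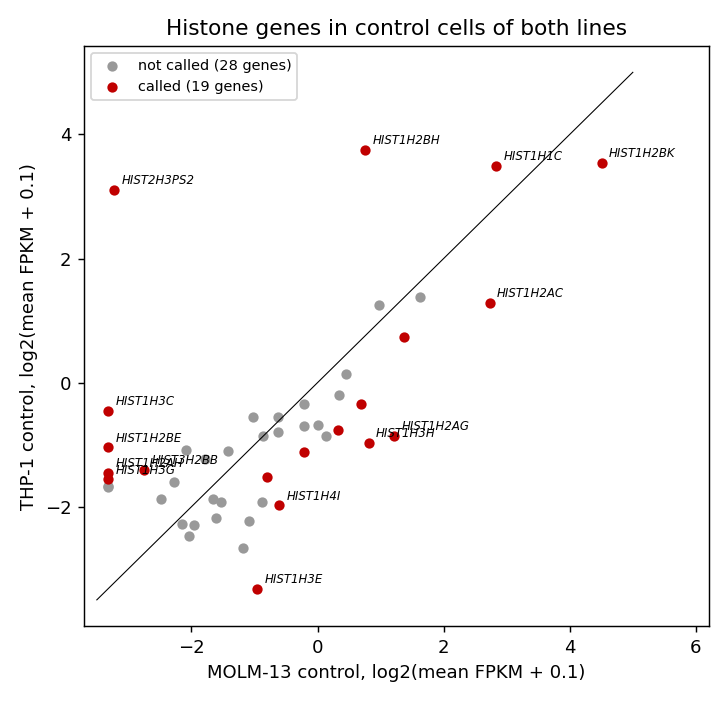
Mean level in the 3 control libraries of THP-1 (vertical) against MOLM-13 (horizontal), both as log2(mean FPKM + 0.1), for 47 tested histone genes with the 19 called genes in red and the line of equal level drawn. HIST2H3PS2 and HIST1H2BH lie farthest above the line, and HIST1H2BK, HIST1H2AC and HIST1H3H below it.

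Although single genes differed, the summed level did not separate the lines, at 65.4 ± 4.10 FPKM (SD, n = 3) in MOLM-13 control and 67.3 ± 8.70 in THP-1 control, a log2 ratio of 0.04. Without HIST1H2BK it was 0.38, higher in THP-1. H3 summed to 3.89 FPKM in MOLM-13 and 10.8 in THP-1. Without HIST2H3PS2 the order turned, with 3.88 FPKM in MOLM-13 and 2.32 in THP-1. H2A summed to 17.3 FPKM in MOLM-13 and 10.4 in THP-1. Over all 12 libraries, 51 genes were seen in both lines, 8 in THP-1 alone and 2 (HIST1H3A and HIST1H4B) in MOLM-13 alone.

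Genes whose products work with histones were read from lists. Of 13 replication-independent histone genes tested in THP-1, and 11 in MOLM-13, 0 were called with JOA. Of all genes, 0.134% were called with JOA in THP-1 and 0% in MOLM-13. Between the control lines 4 of 13 were called higher in THP-1 and 1 lower, against 44.0% of all genes called either way. H1F0, the linker histone of resting cells, was at 29.9 ± 4.39 FPKM in THP-1 and 1.79 ± 0.473 in MOLM-13. H2AFY2, a macroH2A, was at 7.75 ± 1.12 FPKM in THP-1 and 0.0147 ± 0.0143 in MOLM-13.

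Of 24 genes for histone mRNA transcription and 3′ end processing, 0 were called with JOA in either line, also with the block. All genes were called at 0% in MOLM-13 in both fits, and at 0.134% (1.27% with the block) in THP-1. SLBP, which binds the hairpin, was at 64.9 ± 1.91 FPKM in THP-1 control and 57.0 ± 3.24 with JOA. NPAT, the coactivator of histone gene transcription, was at 3.28 ± 0.0876 and 3.28 ± 0.0988 FPKM. Of 20 genes for histone chaperones and nuclear import, 15 had lower values with JOA in each line and 0 were called. Among all genes, 52.4% were higher with JOA in MOLM-13 and 56.7% in THP-1, and the called shares were those just given.

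Of 30 S phase and replication genes, all 30 had lower mean log2 values with JOA in MOLM-13, where 52.4% of all genes were higher. Their median log2 difference was -0.14 against 0.01 for all genes, and 0 were called, against 0% of all genes. 5 of the 30 had an unadjusted limma p under 0.05, against 4.11% of all genes. Control replicate 1 was the highest control library for most of the 30, which raises their control means. PCNA, for one, was at 385.8, 318.8 and 324.6 FPKM in control and at 339.6, 315.5 and 322.2 FPKM with JOA. Groups were separate for 13 of the 30, against 9.64% of all genes. In THP-1, 16 were higher and 14 lower, and 0 were called, against 56.7% higher and 0.134% called among all genes. The HIST1H2BK difference in MOLM-13 stood beside these values, and their part in it was not tested. None of 27 listed RNAs without a poly(A) tail, such as RMRP and RN7SK, has a row in the table, so they give no measure of the selection.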

How the data were processed

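mRNA-seq was performed with stranded mRNA libraries of MOLM-13 and THP-1 cells, 150 bp paired end. The authors deposited 1 table of FPKM values per gene and library. The submitters' processing notes name Trimmomatic, HISAT2, Cufflinks, HTSeq and hg38, without versions. The annotation and the strand setting are not given in the sources used here. Depth per library is not given with FPKM, so no counting interval is printed. Sample labels and the study's methods give 48 h of treatment, and another passage of the study gives a longer time for these cells, which could not be settled here.

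Genes with a mean of at least 0.1 FPKM in the libraries of a fit were tested on log2(FPKM + 0.1) by limma 3.58.1 (lmFit, eBayes with a trend) in R 4.3.3, with Benjamini-Hochberg adjustment over all tested genes. The 0.1 added before the log shrinks the log2 differences of genes at low level. A gene at 0 in 1 group could meet the filter through its other group alone. Calls needed an adjusted p under 0.05 and a log2 difference of at least 0.58 in size (for the interaction, the adjusted p alone). Same-numbered control and JOA libraries deviated together (correlation over genes 0.360 to 0.529 in MOLM-13 and 0.263 to 0.510 in THP-1, at most 0.058 for other pairs), so a fit with the number as a block was added. The fits were tested on simulated data.

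The members and gene lists were chosen with earlier results of these data known. Genes named were the 4 highest per class, those called, and the 3 highest and lowest differences per test. Symbols were matched to GENCODE 29 and RefSeq GRCh38.p14 (71 of 71 each); promoters exist for 66. Python 3.11.15, pandas and matplotlib made sums and figures.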

Additional observations from a re-analysis of the deposited data

How the results depend on the processing

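The alternatives were another pseudocount (1 and 0.01), a mean of at least 1 FPKM or no filter, TPM, median-ratio scaling, eBayes without a trend, 1 fit over all 12 samples, the adjusted p alone, the replicate block and leaving out each library. The count of 0 histone genes called in MOLM-13 was 0 under all of them, a design in which all genes also gave 0 calls. In THP-1 the count of 0 became 3 with the replicate block (1.27% of all genes) and stayed at 0 without each library. It was 1 (HIST1H2AG) in the fit over all 12 samples, for which the share of all genes is not given here. In the blocked fit without 1 same-numbered pair, a choice made after seeing the data that leaves 1 residual degree of freedom, the THP-1 count was between 7 (without replicate 2 or 3) and 15 of 45 tested (without replicate 1), against 1.63%, 1.75% and 1.27% of all genes in the same fits. For the interaction the count of 0 became 1, HIST1H2AH, without a filter and under TPM, again with no share of all genes given here. The count of 19 between the control lines of 47 (44.0% of all genes) was 8 with a pseudocount of 1 (31.3% of all genes), 9 of 12 tested with the filter at 1 FPKM (38.4%), 22 with the numbers as a block (44.3%), which do not pair samples of different lines (correlation 0.066 to 0.187), and 17 to 21 without each library (43.4% to 45.0%).

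The log2 ratio of the summed FPKM in MOLM-13 was 0.25, and 0.13 without HIST1H2BK, while the median over tested genes was 0.00053; leaving out 1 library gave 0.19 to 0.30. In THP-1 that range was 0.03 (without JOA replicate 1) to 0.36, around 0.21. Between the lines the ratio was 0.38 without HIST1H2BK, the median was -0.31, and the range was -0.05 to 0.14. The interaction of HIST1H2AC, 0.00, was -0.069 with a pseudocount of 1, -0.025 with median-ratio scaling, and -0.31 to 0.38 without each library. That of HIST1H2BK was -0.077 to 0.34. The MOLM-13 difference of HIST1H2AG was -0.063 in the blocked fit without the replicate 1 pair. The causes were not tested. Among H4 values 64.4% were 0, and depth is not given, so what depth limits could not be measured.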
